A study of Mus musculus with 3 samples.

Results

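Among unstimulated CD4+ T cells from mouse spleen, 240 of 6861 filtered cells carried an interferon signature. They were chosen by the summed counts of 6 transcripts, *Ifit1*, *Ifit3*, *Ifit3b*, *Isg15*, *Usp18* and *Rsad2*. A cell was a member if these genes together had 3 or more UMIs (unique molecular identifiers, tags that let copies of 1 captured RNA molecule be counted once). Before that, barcodes needed more than 200 genes, under 15% mitochondrial UMIs, at least 1500 UMIs, and no UMI of *Foxp3* or *S100a4*, which mark regulatory and memory-like cells. These steps took the library from 8253 barcodes to 8031, then to 7206 and to 6861. The members were compared with the 5018 filtered cells that held none of the 6 transcripts, called comparison cells here, and 1603 cells with a sum of 1 or 2 were in neither group. The members made up 3.50% of the filtered cells (exact Clopper-Pearson 95% interval 3.08% to 3.96%), and the whole series holds 32505 barcodes.

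The study made 3 single-cell RNA libraries, 1 per condition. The unstimulated library (none WT) came from *Ift20* f/f mice on C57BL/6 without Cre, with a kit enrichment of naïve CD4+ T cells from spleen, then DPBS without antibodies and a sort for 7AAD- CD3+ CD4+ cells. The stimulated libraries came from 24 h cultures in which antibodies to CD3 and CD28 were each present at 1 μg/mL, from *Ift20* f/f mice (CD3/CD28 WT) and from *Ift20* f/f CD4 cre mice (CD3/CD28 IFT20-KO), in which a *Cd4* promoter drives Cre. Per the methods the mice were males, 5 to 10 weeks old, and how many mice went into a library was not given in the sources used here. All animals carried the floxed *Ift20* alleles, so the WT cells are those of floxed mice without Cre. With 1 library per condition there is no replicate and no test, and each interval covers counting error only. Barcodes were shared between libraries in small numbers. The unstimulated library had 125 in common with CD3/CD28 WT, 3 of them members' barcodes, and 141 in common with CD3/CD28 IFT20-KO, 4 of them members'. The methods name a 3′ kit and the labels a 5′ kit, which read opposite transcript ends.

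Type I interferons bind the receptor chains IFNAR1 and IFNAR2, which activate the kinases JAK1 and TYK2. These phosphorylate STAT proteins, which with IRF9 form the complex ISGF3 and bind interferon-stimulated response elements (ISRE) in promoters. The induced genes encode antiviral effectors, sensors of viral nucleic acid, antigen presentation proteins and the factors of the pathway itself. Interferon gamma acts through its own receptor on GAS elements, and both arms share many targets.

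The rule genes are classical members of this response. *Ifit1*, *Ifit3* and *Ifit3b* encode antiviral proteins of the IFIT family, *Isg15* a ubiquitin-like protein, *Usp18* the protease that removes ISG15 and restrains IFNAR2, and *Rsad2* the antiviral enzyme viperin. In the annotation of GRCm38 (GENCODE M21), 3 of them lie side by side on the plus strand of chromosome 19, *Ifit3* at chr19:34583531-34588731, *Ifit3b* at chr19:34607970-34613401 and *Ifit1* at chr19:34640871-34650009. *Isg15* is at chr4:156199424-156200818 on the minus strand, *Usp18* at chr6:121245906-121270917 on the plus strand and *Rsad2* at chr12:26442746-26456452 on the minus strand. Next to *Rsad2*, on the opposite strand, is *Cmpk2* at chr12:26469204-26479837, a nucleotide kinase gene that was not used to choose the members. *Ifit3* and *Ifit3b* are near copies, so reads may have been split between them.

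Promoters from RefSeq (GRCm38.p6, 250 bases before to 50 after the start) were searched for the ISRE core GAAANNGAAA and its reverse complement TTTCNNTTTC. The sequences below run 5′ to 3′ on the gene's strand from 200 to 21 bases before the start, with every match in capitals. They are shown because 4 belong to rule genes and the last, *Oas3*, is 1 of 3 genes with a match among the 15 highest ratios outside the rule.
Ifit1, chr19:34640689-34640868, plus strand: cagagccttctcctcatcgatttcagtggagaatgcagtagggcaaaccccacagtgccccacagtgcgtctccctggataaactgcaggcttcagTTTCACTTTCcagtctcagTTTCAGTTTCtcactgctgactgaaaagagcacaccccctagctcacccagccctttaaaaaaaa
Ifit3, chr19:34583329-34583508, plus strand: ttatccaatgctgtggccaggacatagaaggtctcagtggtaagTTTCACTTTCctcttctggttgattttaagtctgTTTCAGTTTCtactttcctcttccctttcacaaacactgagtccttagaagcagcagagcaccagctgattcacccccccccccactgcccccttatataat
Isg15, chr4:156200839-156201018, minus strand: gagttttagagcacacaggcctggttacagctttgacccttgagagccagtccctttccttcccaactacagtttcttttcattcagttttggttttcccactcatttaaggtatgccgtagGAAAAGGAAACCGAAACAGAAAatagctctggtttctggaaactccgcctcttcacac
Rsad2, chr12:26456473-26456652, minus strand: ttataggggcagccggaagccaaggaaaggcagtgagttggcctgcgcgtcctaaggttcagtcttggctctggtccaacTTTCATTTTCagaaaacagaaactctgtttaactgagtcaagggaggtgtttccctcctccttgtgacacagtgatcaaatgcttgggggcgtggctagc
Oas3, chr5:120777680-120777859, minus strand: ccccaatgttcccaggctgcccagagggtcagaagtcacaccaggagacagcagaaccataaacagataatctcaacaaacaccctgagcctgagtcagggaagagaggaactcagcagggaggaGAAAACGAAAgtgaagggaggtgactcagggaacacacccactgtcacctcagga

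Counted back from the start, the matches begin at -104 and -85 in *Ifit1*, at -156 and -122 in *Ifit3*, at -120 in *Rsad2* and at -75 in *Oas3*. In *Isg15*, 3 matches begin at -78, -72 and -66 and overlap in 1 run. Of the 6 rule genes, 5 were in the promoter table and each of the 5 had a match. Of all 27025 genes of the table, 3.99% had one, and of its 32851 windows 3.44%. Among genes outside the rule that were at least 2-fold higher in members, 31 of the 61 in the table had a match (50.8%), against 150 of 4061 (3.69%) for the compared genes below that ratio. With only genes that were well enough detected in comparison cells to be compared whatever their level in members, these were 17 of 31 (54.8%) and 142 of 3861 (3.68%). Among the 15 genes with the highest ratios, 3 of 11 in the table had a match (27.3%), and *Irf7*, *Cmpk2*, *Oasl2*, *Oasl1*, *Isg20*, *Xaf1* and *Phf11c* had none in this window. For the GAS core TTCNNNGAA, which is its own reverse complement, the shares in the higher and the other genes were 21.3% and 8.08%, against 9.55% of all genes of the table. A match is a run of letters, and binding was not measured.

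The values that chose the members are given as a description. *Isg15* had 881 UMIs in the members, *Ifit1* 426, *Usp18* 254, *Ifit3* 148, *Ifit3b* 48 and *Rsad2* 45. *Isg15* was present in 217 members and *Rsad2* in 25, so the sum rested mainly on *Isg15*, *Ifit1* and *Usp18*. At least 2 of the 6 genes were detected in 209 of the 240 members, and all 6 in 7 members. The sum had a median of 4 and a highest value of 81 UMIs. It was 3 or 4 in 126 members, 5 to 9 in 62 and 10 or more in 52. Just inside the limit were 85 cells with a sum of 3, and just outside it 276 cells with a sum of 2. In those cells *Irf7*, which was not used in the choice, was at 126 and 76.0 UMIs per 1000000 UMIs (CPM).

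The sum grows with the number of UMIs in a cell, so depth was part of the choice. Members had a median of 5100 UMIs and 1781.5 genes, and comparison cells 4740.5 UMIs and 1696 genes. The members ran from 2455 to 29603 UMIs and the comparison cells from 1510 to 18713 UMIs. The median mitochondrial share was 2.09% in members and 2.29% in comparison cells. Summed over cells, the members held 1370725 UMIs and the comparison cells 24550645. Levels below are UMIs of a gene per 1000000 UMIs summed over a group (CPM), and differences are log2 ratios of members to comparison cells with exact binomial 95% intervals.

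The label was set beside a gene outside the rule. That gene was named as a marker of the signature with earlier results of these data known. Its level is therefore a description and no separate check. *Irf7*, the transcription factor that amplifies type I interferon production, was at 284 CPM in members and 44.6 CPM in comparison cells, a log2 ratio of 2.67 (2.50 to 2.84). At least 1 *Irf7* UMI was found in 63.8% of members and 19.0% of comparison cells, and with each cell thinned to 1500 UMIs in 34.6% and 6.86%. The share that free RNA would give was not measured. When each rule gene was left out of the choice in turn, it was higher in the cells chosen by the other 5 for 6 of 6 genes. The 6 genes were chosen together for the rule, so this describes their shared detection and is no separate check of the label. *Isg15* was at 860 CPM in the 120 cells chosen by the other 5 genes and at 32.1 CPM in the cells where those were at 0, a log2 ratio of 4.74 (4.59 to 4.90). The ratio of *Ifit1* was 5.25 (5.00 to 5.51) and that of *Usp18* 3.24 (2.98 to 3.49).

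Naïve T cell genes stood at similar levels in members and comparison cells. All 15 listed naïve genes were compared and none differed by 2-fold, with a median log2 ratio of -0.08 against 0.00 for all 5178 genes compared. *Cd4* and *Cd3e* had log2 ratios of 0.06 and 0.02. The lowest were *Il7r*, the receptor for the survival cytokine IL-7, at 376 and 493 CPM (-0.39, -0.52 to -0.26), and *S1pr1*, the receptor for exit from lymphoid organs, at -0.30 (-0.46 to -0.13). *Ccr7* was at 651 and 758 CPM (-0.22, -0.32 to -0.12). Of 22 memory or effector genes, 8 had enough UMIs to compare and none differed by 2-fold, with a median log2 ratio of 0.02. Over all genes compared 1.54% were higher and 0.0579% lower by 2-fold, so a count of 0 in 8 or 15 genes does not set these lists apart. *Ccl5*, *Nkg7* and *Tbx21* were at 0 UMIs in members and at 8.15, 2.97 and 0.448 CPM in comparison cells, where *Ccl5* was found in 23 cells and *Nkg7* in 19. For *Tbx21*, a difference was not detectable at this depth. Counted by cells, a difference was not detectable for *Ccl5* or *Nkg7* either. They were found in 0.458% and 0.379% of comparison cells, while their absence from the members allows a share of up to 1.53% (Clopper-Pearson).

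Markers of other cell types were summed by list, and for each list the level in members was close to or below that in comparison cells except for CD8 markers. At least 1 UMI of a B cell marker was found in 72.5% of members and 67.5% of comparison cells, of a myeloid marker in 34.6% and 31.3%, and of an NK cell marker in 15.4% and 16.4%. The 9 B cell markers summed to 272 CPM in members and 291 CPM in comparison cells. Of those 373 UMIs in members, 363 were *Ighm*, 8 *Cd74* (5.84 and 3.01 CPM) and 2 *Cd79b*, while *Ms4a1*, *Cd79a*, *H2-Aa*, *H2-Ab1* and *H2-Eb1* were at 0. The 7 myeloid markers summed to 73.0 and 80.5 CPM, with 99 of 100 UMIs in members from *Cst3* and none from *Lyz2*, *Csf1r*, *Itgam*, *S100a8* or *S100a9*. The 5 NK cell markers summed to 37.9 and 48.1 CPM, with 51 of 52 UMIs from *Klrd1*. The 5 dendritic cell markers had 1 UMI in members, a *Ccr9* UMI, and red cell and platelet markers had 0. *Cd8a* was at 0 in members, and *Cd8b1* was at 32.8 and 27.3 CPM, with a CD8 marker in 15.8% of members and 11.2% of comparison cells. Y-linked *Eif2s3y* was at 68.6 CPM in members and 69.8 CPM in comparison cells, and *Xist* had no UMI in either.

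Outside the rule, 80 of the 5178 genes compared were at least 2-fold higher in members, 1.54% of them, and 3 were at least 2-fold lower, 0.0579%. A gene was compared if it had 30 UMIs in the members, or would have had them at the level of the comparison cells. Of the 80, 37 reached this minimum only through the members, and 17 of those were so low in comparison cells that they could not have entered without a 2-fold ratio. Among the 4900 genes that reached it at the comparison level, 43 were at least 2-fold higher (0.878%). Interferon-related lists held 61 of the 80 genes, and T cell receptor segments 5. The antiviral list held 49 of the 5178 genes compared and 37 of the 80. Among genes that reached the minimum at the comparison level, it held 35 of 4900 and 25 of the 43. For the other lists together and the segments, the share of all genes compared is not given here. The lists were chosen with earlier results of these data known, so these counts are a description.

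**Figure D1:**
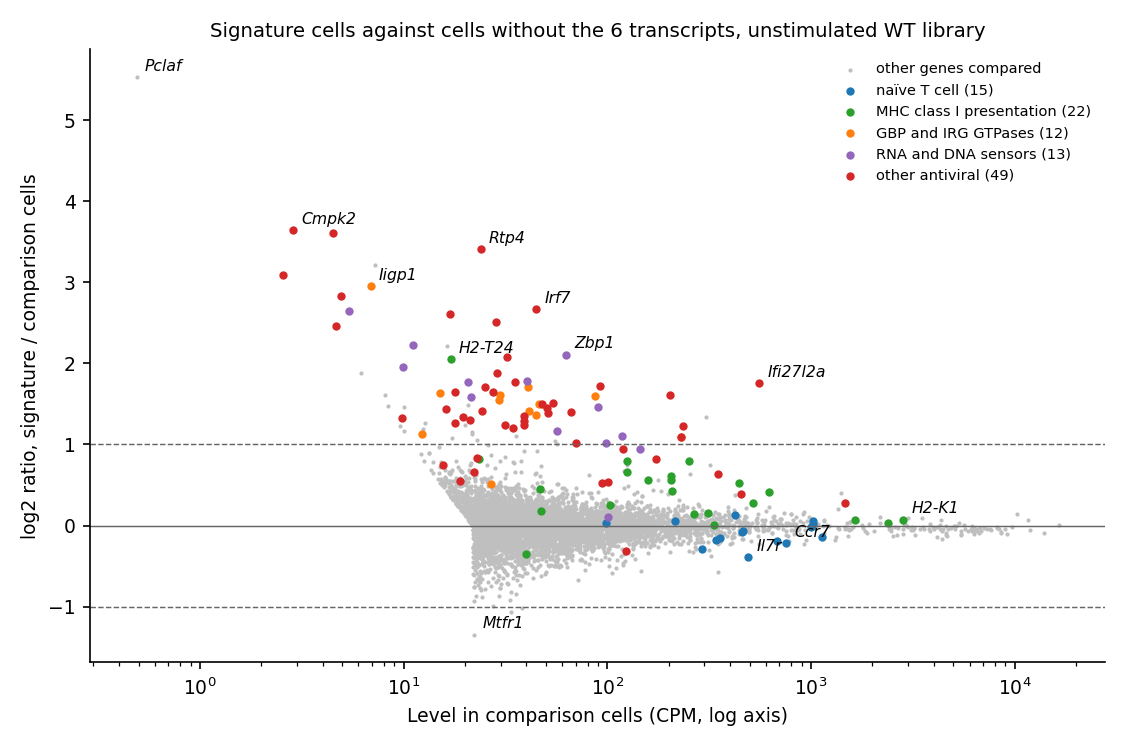
The log2 ratio of members to comparison cells (y axis) against the level in comparison cells (x axis, CPM, log scale), 1 point per gene compared, coloured by list with the number compared in brackets, and dashed lines at 2-fold. Most antiviral, sensor and GTPase genes lie above the upper line, fewer of them toward the right, where *Sp100*, *Slfn2* and *Shisa5* lie below it, while naïve genes and *H2-K1* lie near 0, and *Pclaf* at the top left came from 1 cell.

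Of the interferon ligands, no transcript was found in the members. All 20 listed interferon genes, including *Ifnb1* and *Ifng*, had 0 UMIs in the 1370725 UMIs of the members, with an exact Poisson 95% upper bound of 2.69 CPM for their sum. The comparison cells had 7 UMIs of them, at 0.285 CPM. Which cells, if any, made interferon was not tested.

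The receptor chains and kinases differed little between members and comparison cells. *Ifnar1* was at 74.4 and 69.0 CPM (log2 ratio 0.11, -0.19 to 0.40) and *Ifnar2* at 82.4 and 59.9 CPM (0.46, 0.17 to 0.74). *Jak1* had a log2 ratio of 0.05 (-0.08 to 0.19) and *Tyk2*, compared only through its 30 UMIs in members, of 0.47 (-0.11 to 1.01). For the interferon gamma receptor, *Ifngr1* was lower at 90.5 and 123 CPM (-0.44, -0.71 to -0.18), and *Ifngr2* had a log2 ratio of 0.18 (-0.20 to 0.54).

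*Stat2* and *Irf9*, which encode factors of the pathway, and *Irf7* were more than 2-fold higher. *Stat2* was at 56.2 and 18.0 CPM (log2 ratio 1.64) and *Irf9* at 154 and 54.1 CPM (1.51, 1.29 to 1.72). With *Irf7* these were among the 4 of 19 compared genes of the receptor, JAK-STAT and IRF list that passed 2-fold (3 of 17 at the comparison level, without *Stat2*), and the list's median log2 ratio was 0.18. *Irf1* and *Irf2* were at 0.56 and 0.46, and *Irf3*, which is not induced by interferon, at -0.11 (-0.48 to 0.24). *Stat3*, the main STAT of IL-6 signalling, was at 0.05. Of the genes that restrain the pathway, *Socs1* was at 85.4 and 66.8 CPM (0.35, 0.07 to 0.63), *Socs3* at -0.34 (-0.67 to -0.02) and *Ptpn2* at -0.12.

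Antiviral effectors formed the largest group. Of 64 listed genes in the table that were not in the rule, 35 reached 30 UMIs at the level of the comparison cells. Of these 35, 25 were at least 2-fold higher, with a median log2 ratio of 1.35 against -0.01 for all 4900 such genes. Another 14, 12 of them at least 2-fold higher, were compared only through their UMIs in members. The list also holds genes that other lists hold, such as *Stat2*, *Irf9*, *Irf7* and *Ifi47*. Its summed level was 11077 CPM in members and 5238 CPM in comparison cells, a log2 ratio of 1.08 (1.06 to 1.10). Of the 49 genes compared in all, only *Ifi27* was lower, at 99.2 and 124 CPM (-0.32, -0.58 to -0.07), while the related *Ifi27l2a* was the most abundant gene of the list at 1872 and 554 CPM (1.76, 1.70 to 1.82).

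The highest ratios of the list include genes so rare in comparison cells that they could be compared only because they were at least 2-fold higher in members. Of those named next, this holds for *Cmpk2*, *Oas3*, *Oas1a*, *Oasl2* and *Oasl1*, and their ratios are a description. *Cmpk2*, the neighbour of *Rsad2*, was at 35.7 and 2.85 CPM (log2 ratio 3.65, 3.09 to 4.20). Among the oligoadenylate synthetase family, whose products activate RNase L, *Oas3* was at 35.0 and 4.93 CPM (2.83) and *Oas1a* at 25.5 and 4.64 CPM (2.46). The OAS-like genes *Oasl2* and *Oasl1* had log2 ratios of 3.61 (3.17 to 4.05) and 3.09 (2.41 to 3.74). *Rtp4*, an inhibitor of flavivirus replication, was at 254 and 23.9 CPM (3.41, 3.21 to 3.60) and was found in 65.0% of members and 9.73% of comparison cells. *Oas1a* and other *Oas1* genes are close copies, so reads may have been split.

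Other effectors of defined function followed. *Isg20*, an exonuclease of viral RNA, was at 103 and 16.8 CPM (log2 ratio 2.61), and *Xaf1*, a promoter of apoptosis, at 162 and 28.4 CPM (2.51). *Bst2*, the tetherin that holds virions at the cell surface, was at 303 and 92.0 CPM (1.72, 1.57 to 1.87). *Ifit2*, a neighbour of the rule genes, had a lower ratio of 1.26 (0.85 to 1.66). Toward the low end of the list were *Sp100* at 0.64, *Slfn2* at 0.39 and *Shisa5*, at 1786 and 1468 CPM, at 0.28. *Phf11c*, outside all lists and among the 15 highest ratios, was at 75.9 and 16.3 CPM (2.22). *Isg20*, *Ifit2* and *Phf11c* were compared only through their UMIs in members.

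*Mx1* (7 UMIs in members), *Ifi44* (5), *Ifitm3* (18) and *Oas2* (25) are classical interferon-induced genes and had too few UMIs to be compared. *Ifitm1* and *Oas1g* had 0 UMIs.

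Sensors of viral nucleic acid were also higher. Of 8 genes that reached the minimum at the comparison level, 6 were at least 2-fold higher, with a median log2 ratio of 1.14. Another 5, *Dhx58*, *Ifih1*, *Eif2ak2*, *Ifi206* and *Ifi214*, were compared only through their UMIs in members, and *Dhx58* and *Ifih1* could not have been compared without a 2-fold ratio. For RNA, *Dhx58* (LGP2) was at 33.6 and 5.38 CPM (2.64, 2.12 to 3.14), *Ifih1* (MDA5) at 38.7 and 9.94 CPM (1.96) and *Ddx58* (RIG-I) at 127 and 56.4 CPM (1.17). *Eif2ak2*, the kinase PKR that halts translation, was at 51.8 and 11.1 CPM (2.22). *Zbp1*, a sensor of Z-form nucleic acid that can start necroptosis, was at 271 and 62.7 CPM (2.11, 1.94 to 2.27). The clustered PYHIN genes *Ifi213*, *Ifi206*, *Ifi214*, *Ifi208*, *Ifi209* and *Mndal* had log2 ratios of 1.78, 1.78, 1.59, 1.46, 1.10 and 1.01. *Ifi203*, the most abundant gene of the sensor list, was below 2-fold at 277 and 144 CPM (0.94, 0.79 to 1.10). *Tmem173*, the adaptor STING, was at 108 and 101 CPM (0.10, -0.15 to 0.34).

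Of the genes for ISG15 conjugation, *Herc6*, the ligase in mouse, was at 43.8 and 16.2 CPM (log2 ratio 1.44) and *Trim25*, a ligase of RIG-I, at 47.4 and 21.7 CPM (1.13), and both were compared only through their UMIs in members. *Uba7*, the activating enzyme, had a log2 ratio of 0.77 (0.43 to 1.10). The conjugating enzyme *Ube2l6* had 10 UMIs in members and was not compared.

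The GTPases that interferon gamma strongly induces stood higher as well. Of 9 GBP and IRG genes that reached the minimum at the comparison level, 8 were at least 2-fold higher, with a median log2 ratio of 1.50. *Iigp1* was among 3 others compared only through the members, and could not have been compared without a 2-fold ratio. The summed level of the list was 1636 and 621 CPM (1.40, 1.33 to 1.46). *Iigp1* was at 53.3 and 6.88 CPM (2.95, 2.54 to 3.36), *Gbp2* at 134 and 40.9 CPM (1.71) and *Igtp* at 263 and 87.1 CPM (1.59). *Gbp8* was the exception at 0.52. GBP genes and the pair *Tgtp1* and *Tgtp2* are similar in sequence, so their separate values are uncertain. *Cxcl9* and *Ciita*, targets of interferon gamma in other cell types, had 0 UMIs in members.

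The classical MHC class I genes differed little. Of 22 class I presentation genes compared, *H2-T24* alone was at least 2-fold higher and was compared only through its UMIs in members, at 70.8 and 17.0 CPM (log2 ratio 2.06, 1.72 to 2.38), and the median was 0.42. Of the 21 that reached the minimum at the comparison level, 0 were at least 2-fold higher. Over all genes that reached it there the share was 0.878%, so this count does not set the list apart. The classical heavy chains *H2-K1* and *H2-D1* were at 0.07 (0.03 to 0.12) and 0.03 (-0.02 to 0.08), and the light chain *B2m* at 0.06 (0.00 to 0.12). Genes of peptide processing and loading ran from the transporter subunit *Tap1* at 0.66, *Tapbp* at 0.61 and the immunoproteasome subunit *Psmb9* at 0.56, through *Tap2* at 0.42, to the chaperone *Calr* at 0.25, the peptidase *Erap1* at 0.17 and *Pdia3* at 0.15. *Nlrc5*, the transactivator of the class, was at 0.82. Among the Ly6 and Ms4a surface genes, *Ly6a* (Sca-1) was at 768 and 305 CPM (1.33, 1.24 to 1.43), *Ly6e* at 0.40 and *Ly6c1* at 0.38.

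**Figure D2:**
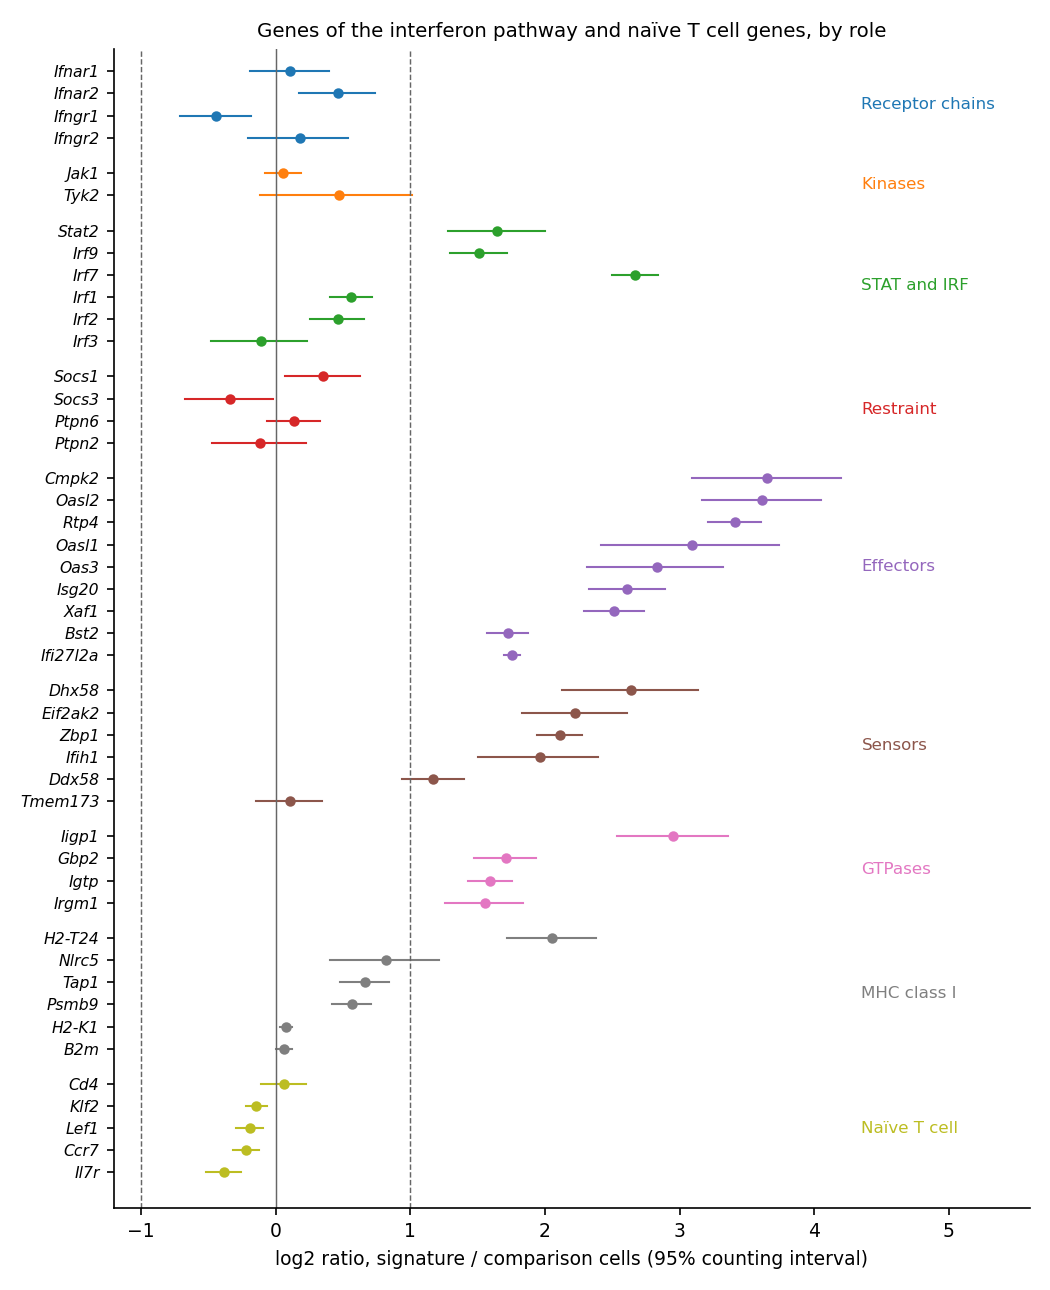
Log2 ratios of members to comparison cells (x axis) with exact binomial 95% counting intervals for selected genes grouped by role, with dashed lines at 2-fold. Ratios of receptor chains, kinases and genes of restraint lie between the dashed lines. The intervals of *Ifnar2* and *Socs1* lie above 0 and those of *Ifngr1* and *Socs3* below it. *Stat2*, *Irf9* and *Irf7* lie above 1, and the drawn effectors, sensors and GTPases lie to the right except *Tmem173*. Lower genes of these lists, such as *Ifi27*, *Shisa5*, *Slfn2*, *Sp100*, *Ifi203* and *Gbp8*, are not drawn. *Cmpk2*, *Oasl2*, *Oasl1*, *Oas3*, *Dhx58*, *Ifih1* and *Iigp1* could not have been compared without a 2-fold ratio. *H2-K1*, *B2m* and the naïve genes lie close to 0, the lowest being *Il7r* at -0.39.

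Pooled over the cells of a class, the level of the response rose with the sum of the rule genes. The summed antiviral level was 5238 CPM at a sum of 0, 5639 at 1, 6388 at 2, 8702 at 3 or 4, 11257 at 5 to 9 and 17715 at 10 or more. *Irf7* was at 44.6, 57.8, 76.0, 171, 319 and 562 CPM over the same classes, and *Rtp4* at 23.9, 38.0, 62.9, 153, 305 and 477 CPM. GBP and IRG genes went from 621 CPM at a sum of 0 to 988 at 2 and 2896 at 10 or more. The pooled levels of cells with a sum of 1 or 2 thus lay between the groups for these lists. Whether single cells had intermediate levels was not tested.

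The class I list went from 10914 CPM at a sum of 0 to 14465 CPM at 10 or more, and *H2-K1* from 2837 to 3058 CPM. The naïve list was at 8766 CPM at a sum of 0 and 8265 CPM at 10 or more. *Il7r* was at 493, 439, 396, 385 and 322 CPM from a sum of 0 to 5 to 9, lower in each class, and at 427 CPM at 10 or more. *Ly6a* was at 305 CPM at 0 and 1277 at 10 or more.

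**Figure D3:**
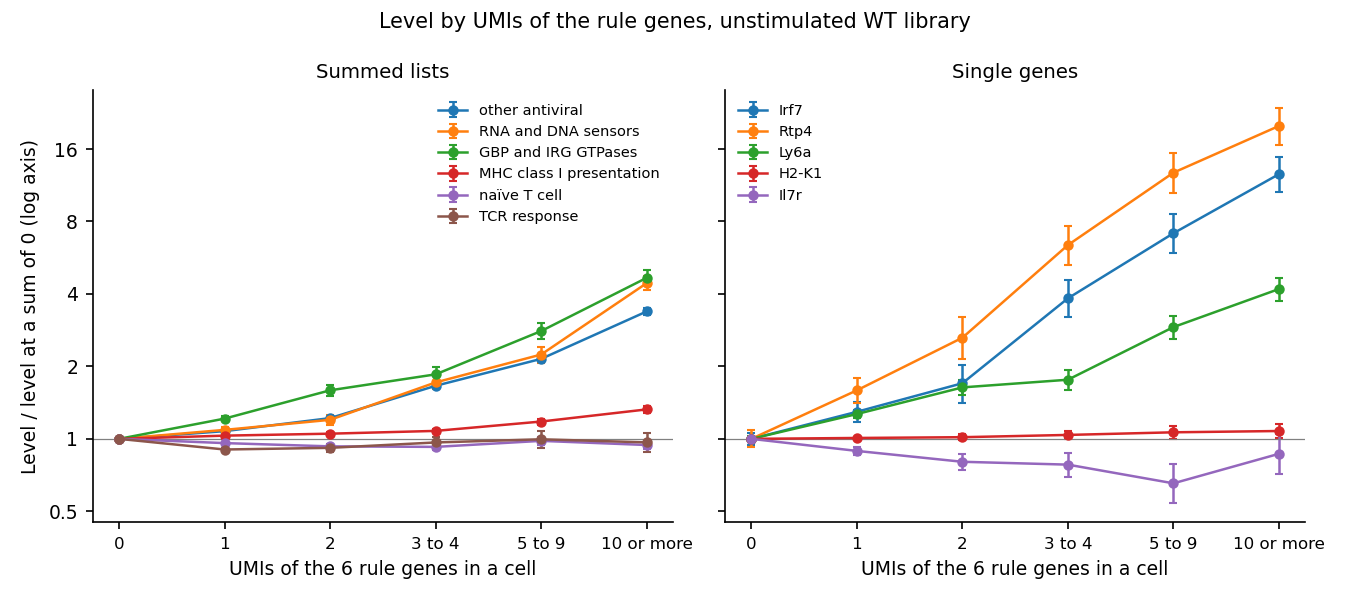
Levels relative to cells with a sum of 0 (y axis, log scale) by the UMIs of the rule genes in a cell (x axis), for summed lists on the left and single genes on the right, with exact Poisson 95% intervals. Antiviral, sensor and GTPase lists and *Irf7*, *Rtp4* and *Ly6a* increased with each class, while the naïve list, the list of T cell receptor (TCR) response genes and *H2-K1* stayed near 1.

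Members varied widely among themselves. The antiviral list took 0.209% to 4.24% of a member's UMIs, with a median of 1.04%, and 0.0991% to 1.61% of a comparison cell's, with a median of 0.509%. The groups overlapped, and 177 of the 240 members (73.8%) lay above the 90th percentile of the comparison cells. The GBP and IRG list took a median of 0.130% in members and 0.0495% in comparison cells, and some members had none. For the naïve list the medians were 0.807% and 0.857%.

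**Figure D4:**
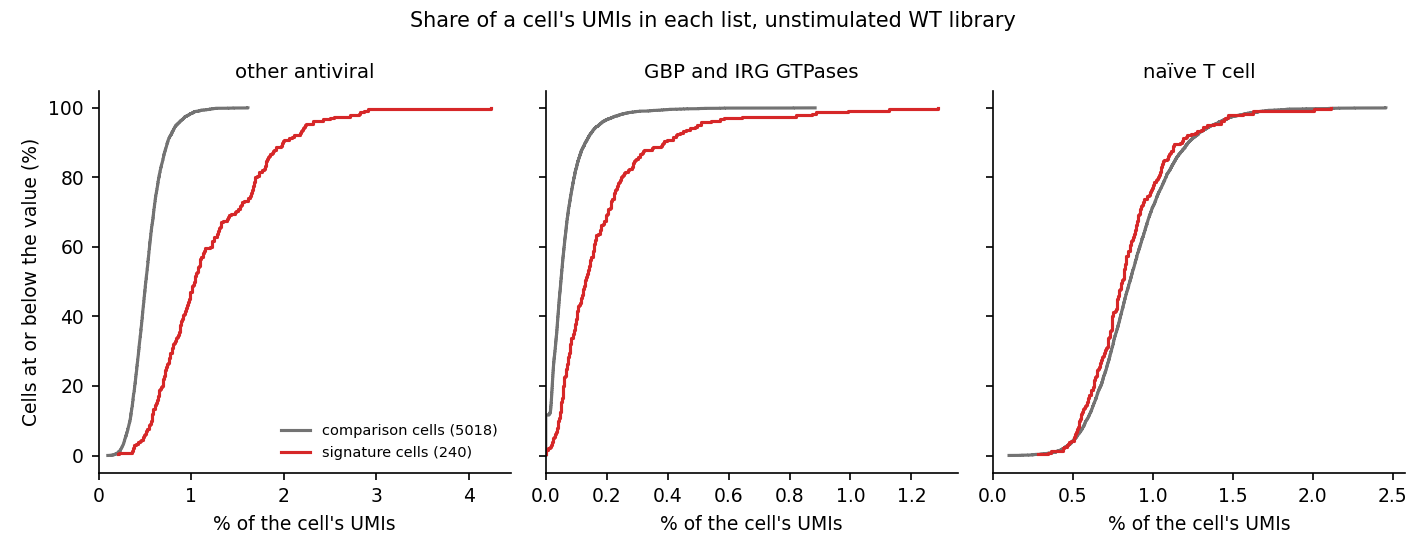
Cumulative share of cells (y axis, %) by the share of a cell's UMIs in a list (x axis, %), for 240 members (red) and 5018 comparison cells (grey). The curves of the antiviral list and of the GTPase list are apart with overlap, with antiviral medians of 1.04% and 0.509%, and those of the naïve list nearly coincide.

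Activation, death and cell cycle genes are given by their counts, which at a background of 1.54% higher and 0.0579% lower over all genes would be near 0 for any lists this short. Of 10 compared genes of the early TCR response none differed by 2-fold, with *Cd69* at 112 and 115 CPM (log2 ratio -0.04) and *Nr4a1* at 0.74, of whose 59 UMIs 23 came from 1 member. Of 11 heat shock and death genes none differed by 2-fold, and *Hspa8* was at 0.00. Among 5 compared cell cycle genes *Top2a* passed 2-fold (1.88), but 26 of its 31 UMIs lay in 1 member. That member had 29603 UMIs, the most of any, and a sum of 3. It held 31 of 31 *Pclaf* UMIs, 88 of 92 *Hist1h2ae* UMIs and 10 of 11 *Mki67* UMIs, and *Top2a*, *Pclaf* and *Hist1h2ae* could not have been compared without a 2-fold ratio. Without it, *Top2a* and *Hist1h2ae* had log2 ratios of -0.72 and -1.27, and 76 genes were at least 2-fold higher, 75 of them among the 80.

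The 3 genes at least 2-fold lower were *Mtfr1*, a mitochondrial regulator (8.75 and 22.2 CPM, log2 ratio -1.35, -2.31 to -0.53), *Ube2h*, a ubiquitin-conjugating enzyme (16.1 and 33.6 CPM, -1.06), and a receptor segment. *Mdn1*, a ribosome assembly factor, followed at -0.99 (-1.73 to -0.34). These rested on 12, 22 and 19 UMIs in members. The other genes among the 15 lowest, *Tmem164*, *Nvl*, *Ube2e3*, *Tmem183a*, *Rnasek*, *Cnot10*, *Rapgef1*, *AL590144.2*, *Prpf18*, *Plcxd2*, *Tec* and *Wwp1*, had log2 ratios from -0.93 to -0.76. Genes outside all lists and named after their values were seen were *Mov10*, an RNA helicase (47.4 and 20.1 CPM, 1.24), *Trim34a* (58.4 and 20.7 CPM, 1.49) and *Cd274*, the checkpoint ligand PD-L1 (22.6 and 9.65 CPM, 1.23, 0.64 to 1.77). All 3 reached 30 UMIs only through the members, and *Cd274* could not have been compared without a 2-fold ratio.

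The members used many receptor segments. A *Trbv* segment was found in 228 of the 240 members, with 20 of 35 segments in use, against 23 in the comparison cells. The most frequent was *Trbv31* in 11.8% of those members (7.95% to 16.8%), against 9.79% of comparison cells, and *Trbv13-2* was in 9.65% and 13.5%. *Ift20*, the gene under study, was at 58.4 CPM in members and 64.9 CPM in comparison cells (log2 ratio -0.15, -0.50 to 0.17).

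Cells set aside by the filter were also counted. Of 322 *Foxp3*-positive unstimulated cells, 16 reached a sum of 3 (4.97%, 2.87% to 7.94%), and of 31 *S100a4*-positive cells 0 did, which allows a share of up to 9.68% by the limit of 3 cells and 11.2% by the Clopper-Pearson interval.

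The same rule was applied to the stimulated libraries, whose median depths after the filter were 12604.5 UMIs in CD3/CD28 WT and 4822 in CD3/CD28 IFT20-KO, against 4803 in none WT. With all UMIs, 3.50% of none WT, 1.82% of CD3/CD28 WT (167 of 9166) and 0.265% of CD3/CD28 IFT20-KO cells (36 of 13583) had a sum of 3 or more. With each cell thinned to 1500 UMIs, the shares were 1.08% (0.848% to 1.35%), 0.0982% (0.0449% to 0.186%) and 0.0294% (0.00802% to 0.0754%). Over all filtered cells, the 6 genes summed to 107, 16.8 and 7.76 CPM. *Irf7* was at 58.3, 1.02 and 0.522 CPM and *Rtp4* at 37.7, 0.386 and 0.0387 CPM, whereas *Bst2* was at 106, 125 and 106 CPM. With 1 library each, condition and library cannot be told apart, and stimulated cells also had 24 h of culture.

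Within CD3/CD28 WT, the 167 cells with a sum of 3 or more were set beside the 8148 with a sum of 0. Of 6530 genes compared, 99 were at least 2-fold higher (1.52%) and 43 lower (0.658%). At the level of its comparison cells 6270 genes reached 30 UMIs, and 47 of them were at least 2-fold higher (0.75%). Of the antiviral list, 3 of 27 such genes were at least 2-fold higher, with a summed log2 ratio of 0.50 (0.47 to 0.52), against 1.08 in none WT. Of the GBP and IRG list it was 6 of 8, with 1.38 (1.34 to 1.42) against 1.40. *Gbp2* was at 757 and 225 CPM (1.75) and *Socs1* at 241 and 72.8 CPM (1.73, 1.60 to 1.85), against 0.35 for *Socs1* in none WT. *Ifi27l2a* was at 505 and 308 CPM (0.71), and *Isg20*, 2.61 in none WT, was at 15.7 and 22.2 CPM (-0.51). The same limit of 3 UMIs was applied at unlike depth. The 167 cells had a median of 13127 UMIs, against 5100 in the members of none WT. Whether the libraries differ in these ratios was not tested, since each is 1 library. In CD3/CD28 IFT20-KO there were only 36 such cells. They had a median of 11481 UMIs and their comparison cells 4254, so the groups also differed in depth. In that library the antiviral list had a summed log2 ratio of 0.16 (0.09 to 0.24), the GBP and IRG list of 0.99 (0.86 to 1.12) and *Socs1* of 1.80, and *Irf7* had 1 UMI.

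**Figure D5:**
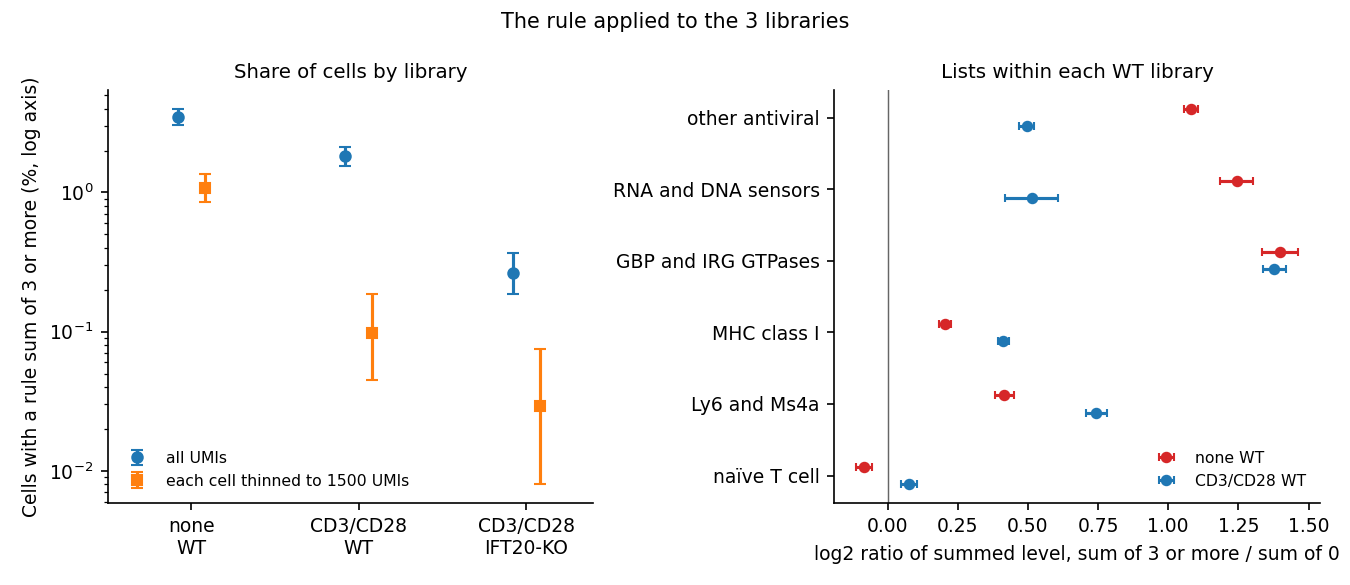
Left, the share of filtered cells with a sum of 3 or more (y axis, %, log scale) in each library with all UMIs and with each cell thinned to 1500 UMIs, with exact Clopper-Pearson 95% intervals. Right, log2 ratios of summed lists within each WT library (x axis) with exact binomial 95% intervals. The share was highest in none WT at both depths, and the GTPase list had like ratios in both WT libraries (1.40 and 1.38), while that of the antiviral list was 1.08 and 0.50. On the right the cells were chosen with all UMIs, at median depths of 5100 UMIs in none WT and 13127 in CD3/CD28 WT.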

How the data were processed

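Per the labels and methods, the authors built 10x Genomics libraries and processed them with Cell Ranger (3.1.0 in the headers of the deposited files, where the methods name an earlier version for demultiplexing; genome mm10). The deposited values are raw UMI counts for each gene in each barcode, without normalization, with tables of gene names and barcodes (unit other). Of 31053 gene identifiers, 30934 were in GENCODE M21.

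The filters on genes and mitochondrial share follow the study's methods, and those on UMIs, *Foxp3* and *S100a4* were added here. UMIs were summed over members and over comparison cells and given as CPM. Intervals (95%) are exact Poisson for CPM, exact binomial for ratios and Clopper-Pearson for shares, and cover counting error only. A gene at 0 in a group was set to a floor of 3 counts, and no such ratio is given here. Thinning to 1500 UMIs used 1 random draw with a fixed seed. No doublet caller was run and no doublets were removed. Instead, cells with the most UMIs were left out as an alternative. Ratios and their intervals were tested on simulated Poisson counts, the counting error that the intervals assume. Spread between cells was not simulated, and the limit for passing was set after earlier limits had failed.

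The genes named are the 6 rule genes and *Irf7*, genes of the lists (interferon response, T cell states, other cell types), the 15 highest and 15 lowest ratios without receptor segments, *Ift20*, *Mki67* and sex-linked genes. Others are said to have been chosen after their values were seen. The members and lists were chosen with earlier results of these data known. Alternatives were other limits of the sum, cell filters, scalings, gene minimums and members chosen without each rule gene. Python 3.11.15, numpy 2.4.6, scipy 1.17.1, pandas 2.3.3 and matplotlib 3.10.9 were used. Authors' clusters were not used here, and some genes are not reported here.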

Additional observations from a re-analysis of the deposited data

How the results depend on the processing

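No paired analysis was possible because each condition had 1 library. Depth limited the detection of each rule gene in a cell.

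The share of members was 1.08% with each cell thinned to 1500 UMIs, 7.52% at a sum of 2 or more and 1.66% at 5 or more. It was 2.65%, 1.75% and 2.78% when *Ifit1*, *Isg15* or *Usp18* was left out of the rule, and 2.65% without cells with a UMI of other cell types, which left 31 members because *Ighm*, *Cst3* and *Klrd1* were widely detected. By library, thinning gave 1.08%, 0.0982% and 0.0294% for none WT, CD3/CD28 WT and CD3/CD28 IFT20-KO.

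The number of genes at least 2-fold higher was 41 after thinning, 24 without cells with a UMI of other cell types, 146 with a minimum of 10 UMIs per gene, 43 with 100, and 43 with only genes that reach 30 UMIs at the level of the comparison cells, an alternative chosen after seeing the data. The number lower was 0 after thinning, 7 at a sum of 2 or more, 0 at 5 or more, 6 without the minimum of 1500 UMIs, 5 with *Foxp3* or *S100a4* cells kept, 1 without the 5% of cells with most UMIs, 1 as UMIs per cell without scaling, 83 with 10 UMIs per gene and 0 with 100. Fewer UMIs or cells leave fewer genes to compare. UMIs per cell without scaling put the median of all genes at a log2 ratio of 0.23, against 0.00.

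The log2 ratio of *Irf7* was 3.01 after thinning, 1.94 at a sum of 2 or more, 3.24 at 5 or more, 2.85 without cells with a UMI of other cell types, 2.89 without the 5% of cells with most UMIs, 2.89 unscaled, and 3.03 and 2.84 when *Isg15* or *Usp18* was left out. It exceeded 1 in all 20 alternatives. The summed antiviral list, in the same order, was 1.14, 0.71, 1.42, 1.29, 1.21, 1.30, 1.36 and 1.21, and it was 1.17 as the mean of per-cell fractions, 1.16 without *Ifit1* and 1.39 as the median over genes. It was above 0 in all 21 alternatives and below 1 in the one at a sum of 2 or more.

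Reversed log2 ratios were *Hist1h2ae* at -0.57 (sum of 5 or more), -0.56 (without the 5% of cells with most UMIs), -1.11 (without *Isg15*) and -1.27 (without the member with the most UMIs, an alternative chosen after seeing the data), *Top2a* at -0.34 (sum of 5 or more), -0.49 (without *Isg15*) and -0.72 (without the member with the most UMIs), and *Mtfr1* at 0.18 (without cells with a UMI of other cell types). The cause of the other moves was not tested.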

Other observations

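Genes outside all lists that were at least 2-fold higher in the members, named after their values were seen, included *Slfn9* (30.6 and 12.7 CPM, log2 ratio 1.27), *Oas1c* (23.3 and 8.39 CPM, 1.48), *Mitd1* (114 and 56.7 CPM, 1.01), *BC147527* (48.2 and 21.6 CPM, 1.16), *AW011738* (24.8 and 8.11 CPM, 1.61) and *Tmem184b* (36.5 and 17.3 CPM, 1.08). All but *Mitd1* reached 30 UMIs only through the members, and *Oas1c* and *AW011738* could not have been compared without a 2-fold ratio. *Slfn9* and *Oas1c* have close copies, so their reads may have been split. *Hist1h3e* had a log2 ratio of 1.17, with 10 of its 31 UMIs in 1 member, and it too had to differ by 2-fold to be compared. The 2 regulatory T cell genes with enough UMIs, *Capg* and *Tnfrsf18*, had log2 ratios of 0.20 and -0.02.

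In the stimulated WT library, genes that were at least 2-fold higher in cells with a sum of 3 or more included *Ifit1bl1* (16.9 and 0.679 CPM, log2 ratio 4.63), *Xaf1* (13.3 and 1.84 CPM, 2.85), *Mov10* (24.1 and 5.48 CPM, 2.14) and *Tbx21*, the Th1 regulator (35.3 and 11.6 CPM, 1.61). These 4 reached 30 UMIs only through those cells, and *Ifit1bl1*, *Xaf1* and *Mov10* had to differ by 2-fold to be compared.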
